A study of Homo sapiens with 22 samples.

Results

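The genes described here encode 46 translation factors, the proteins that start, extend and end protein synthesis on the ribosome. They were picked by gene symbol out of 20411 genes in the mRNA tables of MOLM-13 and NB4 cells. The rule uses symbols and no measured value, but the members were chosen with earlier results of these data known. All 46 symbols were found. In each line 44 of them had a mean level of at least 1 RPKM (reads per kilobase of gene, scaled to the reads of the library) and were tested, while EIF4E3 and EEF1G fell under that limit in both.

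The study asked how acute myeloid leukemia (AML) cells respond to FP54, a degrader of FTO, the enzyme that removes the m6A methyl mark from mRNA. MOLM-13 is a KMT2A-rearranged AML line and NB4 an acute promyelocytic leukemia line with a PML-RARA fusion. Wild-type cells of each line received 2 μM FP54 or the solvent DMSO (mock) for 48 hours, and polyadenylated RNA of 3 libraries per treatment and line was sequenced. Each line is 1 culture model, and nothing in the labels says whether the 3 libraries came from separate cultures, so p-values measure only the spread between these libraries.

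Initiation begins when eIF2, loaded with GTP and the initiator tRNA by its exchange factor eIF2B, joins eIF3, eIF1, eIF1A and eIF5 on the small ribosomal subunit. The cap-binding protein eIF4E, the scaffold eIF4G and the helicase eIF4A bring the mRNA, and 4E-BP proteins block eIF4E when mTOR is inactive. Many elongation factor and ribosomal protein mRNAs start with a C followed by a pyrimidine tract, the terminal oligopyrimidine (TOP) motif, through which mTOR and LARP1 control their translation and stability.

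The starts of some members are shown first. Those shown without a pyrimidine tract at the start all passed the cutoff given below in MOLM-13 or NB4. Others without the tract, such as EIF1AX, EIF5, EIF2B1 and EIF4H, passed it in neither line, so the sequences shown are not a sample of all members. The sequences are from RefSeq (GRCh38), 10 bases before and 20 bases from the annotated transcription start, 5′ to 3′. Capitals mark the pyrimidine run that begins with C at the start, or the first transcribed base alone where no run of at least 5 is present.
EEF1A1, chr6:73521013-73521042, minus strand: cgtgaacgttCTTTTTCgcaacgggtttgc
EEF2, chr19:3985444-3985473, minus strand: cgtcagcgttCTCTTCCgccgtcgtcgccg
EIF2S3, chrX:24054946-24054975, plus strand: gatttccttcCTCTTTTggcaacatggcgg
EIF3D, chr22:36529147-36529176, minus strand: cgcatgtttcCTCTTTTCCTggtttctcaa
EIF3F, chr11:7987327-7987356, plus strand: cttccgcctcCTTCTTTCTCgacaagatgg
EIF4A2, chr3:186783567-186783596, plus strand: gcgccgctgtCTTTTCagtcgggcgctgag
EIF1, chr17:41688875-41688904, plus strand: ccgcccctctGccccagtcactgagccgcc
EIF2S1, chr14:67360318-67360347, plus strand: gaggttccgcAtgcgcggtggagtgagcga
EIF2B3, chr1:44986576-44986605, minus strand: gctgtcagtcAgaggcggcgtggagatcgc
EIF2B5, chr3:184135348-184135377, plus strand: cagcttccttGcggaagtggtgaccgtgag
EIF3B, chr7:2354817-2354846, plus strand: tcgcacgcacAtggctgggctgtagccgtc
EIF3J, chr15:44537137-44537166, plus strand: ccgccgtgctAactcctcgctagctctccc

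Of the 46 members, 38 had a start in the RefSeq table (EIF2S2, EIF3A, EIF3E, EIF3G, EIF3H, EIF3L, EIF4EBP1 and EEF1D did not). A run of C and at least 4 further pyrimidines stood at a start of 10 of the 38, against 5.14% of the 27305 genes in the table. The 10 were EEF1A1, EEF2, EEF1B2, EIF2S3, EIF3D, EIF3F, EIF3K, EIF3M, EIF4A2 and EIF4B.

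Reads on genes per library ranged from 5836560 (MOLM-13, FP54 replicate 2) to 22349822. DMSO replicate 2 of MOLM-13 lay nearest the FP54 libraries on the first principal component, at -10.3 against -30.4 and -33.8 for its partners and 16.1 to 39.7 with FP54. The myeloid markers CD33, SPI1 and CEBPA were present in both lines. HOXA9 (21.3 ± 2.14 RPKM with DMSO) and MEIS1 marked MOLM-13 and were under 0.5 RPKM in NB4, while MPO averaged 16.1 ± 2.92 to 3.79 ± 0.741 RPKM in MOLM-13 and 2170.2 ± 119 to 1116 ± 33.6 RPKM in NB4 from DMSO to FP54, and ELANE with DMSO at 186 ± 38.4 RPKM in MOLM-13 and 0.150 ± 0.0627 RPKM in NB4. MS4A1, CD3E and HBB averaged under 1 RPKM in each group, and CD3D, a T cell gene, averaged 6.35 ± 0.528 to 10.3 ± 0.167 RPKM in NB4. Of these markers MPO was called lower with FP54 in both lines (log2 fold change -2.06 and -0.96) and CD3D higher in NB4 (0.69), while CD33, SPI1 and CEBPA were called in neither, and the part of a changed mix or state of cells in the results below was not tested. FTO mRNA averaged 1.01 ± 0.0767 to 1.01 ± 0.118 RPKM in MOLM-13 and 2.73 ± 0.180 to 2.03 ± 0.0782 RPKM in NB4, where its decrease (log2 fold change -0.41, adjusted p = 0.0119) was under the fold threshold, and FP54 targets the protein, which these data do not measure. In NB4, olfactory receptor genes, silent in blood cells, averaged 0.0509 to 0.0544 RPKM with FP54 and 0.00175 to 0.00387 with DMSO, and the part of this background in the results was not tested beyond subtracting it, which left the counts of members called at 10 lower and 1 higher.

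The most abundant members in DMSO-treated MOLM-13 cells were the elongation factors EEF2 (1497 ± 90.5 RPKM), EEF1A1 (847 ± 97.5 RPKM) and EEF1B2 (772 ± 42.2 RPKM, mean ± SD, n = 3 libraries, as throughout). The same 3 led in NB4, at 611 ± 36.3 RPKM, 566 ± 67.6 RPKM and 533 ± 86.3 RPKM, where the standard deviations of the 3 overlapped. At the lower end, EIF2B2 stood at 3.10 ± 0.452 RPKM in MOLM-13 and 6.03 ± 0.506 RPKM in NB4. EEF1G, a subunit of the exchange complex of EEF1A1, was listed at 0 in all 12 libraries. In the annotation at hand 99.7% of its exon bases are shared with another protein-coding gene on the same strand, and how reads on 2 genes were counted is not given in the sources used here. EIF4A1 shares 28.2% of its exon bases with SENP3-EIF4A1 in the same way, and EIF3C has a near-identical copy, EIF3CL, so the levels of these members are uncertain.

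FP54 lowered 10 translation factor mRNAs in each line and raised 1, in NB4. In these bulk samples, RPKM is relative to the other mRNAs, so less mRNA per cell and a changed mix of cells cannot be told apart. Following the cutoff of the study, a member was called changed where log2(RPKM + 0.1) moved by 0.5 or more and the unadjusted limma p was below 0.01. In MOLM-13 cells 10 of 44 members fell and 0 rose, against 9.04% of all 9710 genes tested falling and 9.30% rising. The 10 were EIF2S2, EIF2B3, EIF3A, EIF3B, EIF3J, EIF4G1, EIF4G3, EIF5A, ETF1 and GSPT1, and all 10 had an adjusted p below 0.05 (background 9.32% lower and 9.84% higher). The median over members was -0.26, with 34 of 44 below 0, beside a median of 0.003 over all genes. In 17 members every FP54 value lay below every DMSO value and in 0 above, against 17.0% and 20.2% of all genes. Leaving out a single library gave 6 (DMSO replicate 1), 4 (DMSO replicate 3), 5 (FP54 replicate 1) or 14 (DMSO replicate 2) members called lower. All genes moved with these choices, at 5.72%, 4.86%, 5.01% and 12.6% called lower. With no filter on low values 4 fell, EIF2S2, EIF3B, EIF4G3 and ETF1, against 2.60% of 20411 genes. At an unadjusted p below 0.05 with no minimum fold, 18 members were lower and 1 higher, against 17.4% and 17.6% of all genes. Limma-voom on recovered reads called 13 lower and 0 higher, against 9.79% and 10.5%. EIF2S2, EIF3J, EIF4G3 and ETF1 stayed called whichever library was left out.

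In NB4 cells 10 of 44 members fell and 1, EIF1, rose, against 10.7% and 18.6% of 9853 genes. Most members were well above the limit of 1 RPKM, and the share of all genes depends on level. With the filter at a mean of 5 RPKM, 10 members fell and 1 rose, against 13.1% and 12.3% of 6415 genes. The decreased members were EIF5B, EIF2S1, EIF2B3, EIF2B5, EIF3A, EIF3B, EIF3C, EIF3G, EIF5A and GSPT1. At an adjusted p below 0.05 with no minimum fold, 22 members were lower and 8 higher, against 22.0% and 29.8% of all genes. The values of the treatments did not overlap in 25 members that were lower with FP54 and 11 that were higher, against 26.2% and 34.3%. The median over members was -0.21 and that over all genes 0.07. Another scaling of the NB4 libraries moved the median of all genes to -0.13 (median-ratio) or -0.03 (quantile) and the share of calls that were decreases from 36.4% to 62.9% or 51.6%. With median-ratio scaling 19 members fell and 1 rose, against 20.4% of all genes falling and 1184 of 9853 rising. With quantile scaling 6 fell and 3 rose, against 13.8% and 13.0%, so the NB4 counts depend on the scaling, and the 6 of 44 that fell under quantile scaling are at the share of all genes. EIF2S1, EIF2B3, EIF2B5, EIF3C, EIF3G and EIF5A were lower and EIF1 was higher under all 3. In MOLM-13 cells the same 10 members were called lower and 0 higher under each scaling.

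**Figure D1:**
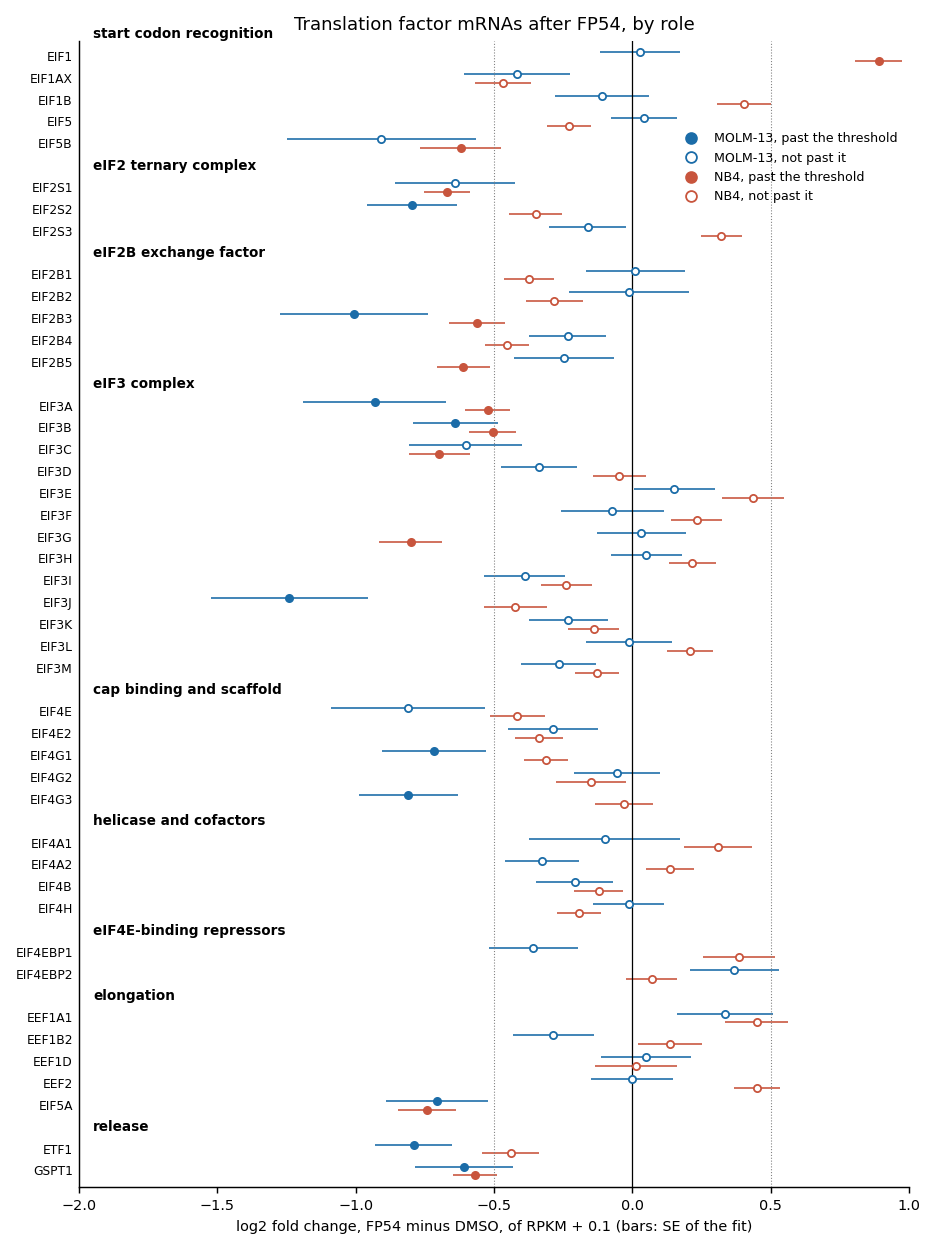
Log2 fold change (FP54 minus DMSO, on RPKM + 0.1) of the 44 tested members, grouped by role, with the standard error of the fit as bars. Filled points passed the threshold, 10 in MOLM-13 (blue) and 11 in NB4 (red), and dotted lines mark a change of 0.5 either way.

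EIF2B3, EIF3A, EIF3B, EIF5A and GSPT1 were called lower in both lines, 5 of 44 members against 3.20% of the 8849 genes tested in both. They are 50% of each list of 10. Of all genes, 878 were called lower in MOLM-13, 1050 in NB4 and 283 in both. Under median-ratio scaling 9 members were lower in both lines (background 5.02%), and under quantile scaling 2, EIF2B3 and EIF5A (background 3.11%). Both changes were below 0 for 26 members and above 0 for 7, while 8 were lower in MOLM-13 and higher in NB4 and 3 the reverse. As the interaction of line and treatment, tested over 8849 genes, the effect differed at an adjusted p below 0.05 for 4 members, EIF1, EIF3G, EIF4G3 and EIF4EBP1, against 14.2% of all genes. Library numbers were left out of both lines at once, and of the 4 only the EIF1 difference held each time. The count fell to 2 when DMSO replicate 3, FP54 replicate 2 or FP54 replicate 3 was left out, and to 1 when FP54 replicate 1 was. The share of all genes for these counts is not given here.

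**Figure D2:**
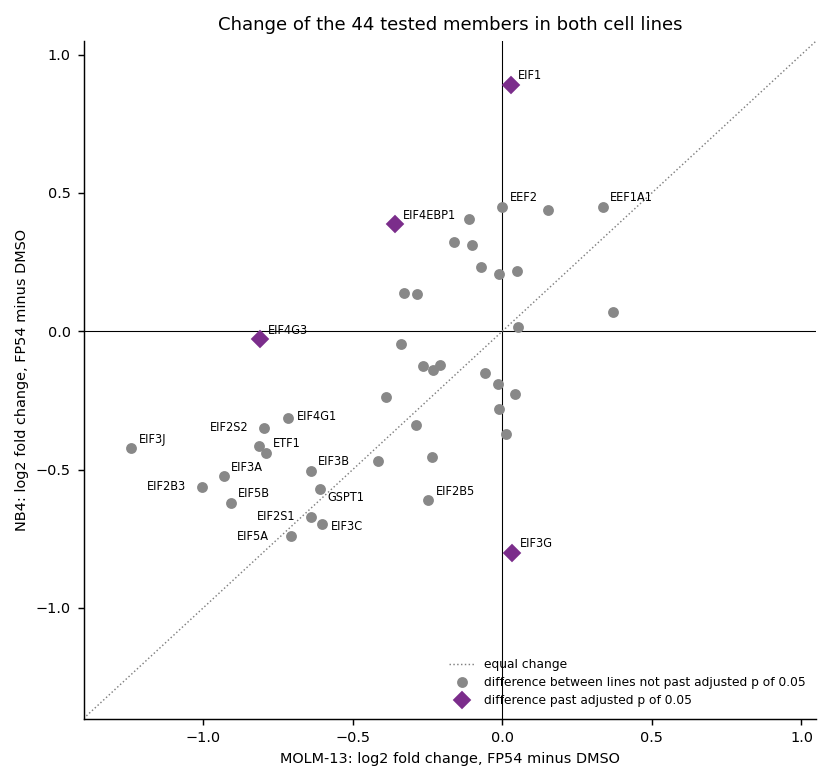
Log2 fold change of the 44 tested members in MOLM-13 (x axis) and NB4 cells (y axis), with the line of equal change dotted. Diamonds are the 4 members whose effect differed between the lines, and EIF1, at 0.03 and 0.89, lies farthest above the dotted line.

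Among the factors that select the start codon, EIF1, which keeps the scanning ribosome from starting at a wrong codon, responded in NB4. Its level there was 63.5, 62 and 56.3 RPKM with DMSO and 107, 120.2 and 109.7 with FP54 (log2 fold change 0.89, SE 0.08, adjusted p = 1.62e-05). The 3 FP54 values all lay above the DMSO values, at 186% of the DMSO mean. In MOLM-13 cells EIF1 measured 155, 148 and 136 RPKM with DMSO and 157, 127 and 165 with FP54 (log2 fold change 0.03, SE 0.14, adjusted p = 0.91). These values overlapped, and the difference in effect between the lines was 0.86 (SE 0.17, adjusted p = 0.00289). Its paralog EIF1B, about which less is known, measured 15.4, 14.6 and 12.5 RPKM with DMSO and 17.9, 18.7 and 19.5 with FP54 in NB4 (log2 fold change 0.40, SE 0.10, adjusted p = 0.00577). The groups were apart, but the change was under the fold threshold. In MOLM-13 EIF1B went from 18.8, 14.8 and 16.9 to 16.6, 12.5 and 18 RPKM (log2 fold change -0.11, SE 0.17, adjusted p = 0.677), with overlap.

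EIF5B is the GTPase that joins the large subunit to the initiation complex. In NB4 it measured 84.3, 106 and 69 RPKM with DMSO and 48.5, 57.4 and 61.2 with FP54 (log2 fold change -0.62, SE 0.15, adjusted p = 0.00501). All FP54 values were below all DMSO values, but the call was lost without DMSO replicate 2 or FP54 replicate 1. MOLM-13 cells gave 64.6, 49.5 and 100.3 RPKM with DMSO and 22.3, 61.2 and 35.5 with FP54 (log2 fold change -0.91, SE 0.34, adjusted p = 0.0881), with the second FP54 library between the DMSO values. EIF1AX, which works with EIF1 in scanning, had a log2 fold change of -0.42 in MOLM-13 and -0.47 in NB4. EIF5, which triggers GTP hydrolysis by eIF2, had 0.04 and -0.23, and none of these 4 changes reached the threshold.

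Of the 3 subunits of eIF2, 1 fell in each line, against 9.04% of all genes in MOLM-13 and 10.7% in NB4. With 3 genes, 1 call is not a result about the complex. EIF2S2, the beta subunit, measured 146, 149.6 and 181 RPKM with DMSO and 75.8, 108 and 92.1 with FP54 in MOLM-13 (log2 fold change -0.80, SE 0.16, adjusted p = 0.0107), a fall to 57.8% with no overlap. In NB4 its values were 142, 164 and 135 RPKM with DMSO and 107, 124 and 115 with FP54 (log2 fold change -0.35, SE 0.10, adjusted p = 0.0112), also apart but under the fold threshold. EIF2S1, the alpha subunit that stress kinases phosphorylate, measured 30.0, 30.4 and 33.1 RPKM with DMSO and 19.1, 19 and 20.5 with FP54 in NB4 (log2 fold change -0.67, SE 0.08, adjusted p = 9.06e-05). All 3 FP54 libraries were low, and the call held whichever library was left out. In MOLM-13 EIF2S1 went from 17.1, 11 and 17.3 to 7.30, 10.5 and 11 RPKM (log2 fold change -0.64, SE 0.22, adjusted p = 0.0642), where the second DMSO library lay within the FP54 range. EIF2S3, the gamma subunit that binds GTP, changed by -0.16 in MOLM-13 and 0.32 in NB4 (adjusted p = 0.441 and 0.00461). EIF2S3 had a pyrimidine start and EIF2S1 did not, while EIF2S2 had no start in the RefSeq table.

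The exchange factor eIF2B has 5 subunits, of which 1 fell in MOLM-13 and 2 in NB4, while the other subunits were below the fold threshold. Of all genes, 9.04% and 10.7% were called lower. EIF2B3, the gamma subunit, measured 6.49, 3.15 and 5.71 RPKM with DMSO and 1.88, 2.72 and 2.66 with FP54 in MOLM-13 (log2 fold change -1.01, SE 0.27, adjusted p = 0.0281), with 54 reads in the shallowest library. The second DMSO library was near the FP54 values, and the call was lost without DMSO replicate 1 or 3 or the first FP54 library. NB4 gave 11.5, 12.9 and 14.3 RPKM with DMSO and 9.16, 8.29 and 8.63 with FP54 (log2 fold change -0.56, SE 0.10, adjusted p = 0.00109), where the groups were apart and the call was lost without DMSO replicate 3. EIF2B5, the catalytic epsilon subunit, measured 18.7, 22.9 and 21.9 RPKM with DMSO and 13.7, 13.9 and 13.8 with FP54 in NB4 (log2 fold change -0.61, SE 0.09, adjusted p = 0.000418), with FP54 values that hardly varied. In MOLM-13 EIF2B5 measured 18.5, 16.2 and 23 RPKM with DMSO and 15.7, 19.5 and 13.4 with FP54 (log2 fold change -0.25, SE 0.18, adjusted p = 0.361), and its groups overlapped. EIF2B1, EIF2B2 and EIF2B4 had log2 fold changes of -0.37, -0.28 and -0.45 in NB4. In MOLM-13 these 3 were at 0.01, -0.01 and -0.23, none of them past an adjusted p of 0.05. All 5 subunits were lower in NB4 at an adjusted p below 0.05 and without overlap, against 22.0% and 26.2% of all genes. In NB4 4 of the 5 were called lower under median-ratio scaling and 2 under quantile scaling, against 20.4% and 13.8% of all genes.

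Of the 13 subunits of eIF3, the largest initiation factor, 3 fell in MOLM-13 (median over the complex -0.27) and 4 in NB4 (median -0.14), and 0 rose in either line. The decreases were in EIF3A, EIF3B, EIF3C, EIF3G and the loosely attached EIF3J. EIF3A, EIF3B, EIF3C, EIF3G and EIF3I are among the subunits with counterparts in budding yeast. They held 2 calls in MOLM-13 (median -0.60) and 4 in NB4 (median -0.52), where quantile scaling left 2 calls. Over all genes 9.04% and 10.7% were called lower, and 13.8% in NB4 with quantile scaling. EIF3D, EIF3E, EIF3F, EIF3H, EIF3K, EIF3L and EIF3M held 0 calls in either line, with medians of -0.07 and 0.21. In NB4 the median of these 7 subunits was 0.009 under median-ratio and 0.20 under quantile scaling, and that of the other group -0.72 and -0.40. EIF3J, called lower in MOLM-13, was placed in neither group, and the split was not named in the design. EIF3E and EIF3H had an adjusted p below 0.05 in NB4 in the upward direction, at log2 fold changes of 0.44 and 0.22.

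EIF3A, the scaffold of the complex, measured 238, 220.1 and 294 RPKM with DMSO and 89.8, 204 and 121 with FP54 in MOLM-13 (log2 fold change -0.93, SE 0.26, adjusted p = 0.033). The second FP54 library, also the shallowest, stayed close to the DMSO values, and the call was lost without DMSO replicate 3, FP54 replicate 1 or FP54 replicate 3. In NB4 EIF3A measured 262, 253 and 273 RPKM with DMSO and 172, 190.5 and 186 with FP54 (log2 fold change -0.52, SE 0.08, adjusted p = 0.000372), a decrease to 69.6% with groups apart. This call was lost without DMSO replicate 3 or FP54 replicate 1 and under quantile scaling. EIF3B, a second scaffold subunit, went from 42.7, 33 and 45.9 to 24.1, 27.4 and 25.8 RPKM in MOLM-13 (log2 fold change -0.64, SE 0.15, adjusted p = 0.0194). The groups were apart, and the call was lost without DMSO replicate 3. NB4 gave 97.2, 112 and 113 RPKM with DMSO and 77.5, 74.2 and 74.9 with FP54 (log2 fold change -0.50, SE 0.08, adjusted p = 0.00066), apart as well but only just past the fold threshold, so that 4 of 6 left-out libraries ended the call.

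EIF3J had the largest decrease of any member in MOLM-13, with 51.5, 31.9 and 63.5 RPKM with DMSO and 13.6, 27.2 and 21.2 with FP54 (log2 fold change -1.24, SE 0.28, adjusted p = 0.0165). The groups did not overlap, although the second DMSO library was the lowest of its group. In NB4 the values were 60.8, 64.1 and 62.2 RPKM with DMSO and 38.3, 52.6 and 49.8 with FP54 (log2 fold change -0.42, SE 0.11, adjusted p = 0.0101), lower in each FP54 library but not past the fold threshold. The difference between the lines was 0.82 (SE 0.35, adjusted p = 0.137), which did not pass. EIF3G, an RNA-binding subunit, was called lower in NB4 only. It measured 241, 335 and 265 RPKM with DMSO and 158, 163 and 157 with FP54 in NB4 (log2 fold change -0.80, SE 0.11, adjusted p = 0.000237) and 118, 126 and 137 RPKM with DMSO and 131, 156 and 107 with FP54 in MOLM-13 (log2 fold change 0.03, SE 0.16, adjusted p = 0.903). Only the NB4 groups were apart, and the effects differed by -0.83 (SE 0.21, adjusted p = 0.0151). That difference was lost without FP54 replicate 1 or FP54 replicate 2.

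EIF3C, which contacts eIF1 and eIF5, measured 5.74, 6.57 and 6.62 RPKM with DMSO and 3.97, 3.47 and 4.13 with FP54 in NB4 (log2 fold change -0.70, SE 0.11, adjusted p = 0.000478). In MOLM-13 it measured 5.10, 5.79 and 5.94 RPKM with DMSO and 3.31, 4.98 and 2.95 with FP54 (log2 fold change -0.60, SE 0.20, adjusted p = 0.0631). Values were apart in both lines, but only the NB4 change was called. The copy EIF3CL measured 5.41, 5.57 and 5.85 RPKM with DMSO and 3.34, 2.84 and 3.16 with FP54 in NB4 (log2 fold change -0.83, SE 0.11, adjusted p = 0.000109), also with no overlap, and reads of the copies may have been split between them.

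**Figure D3:**
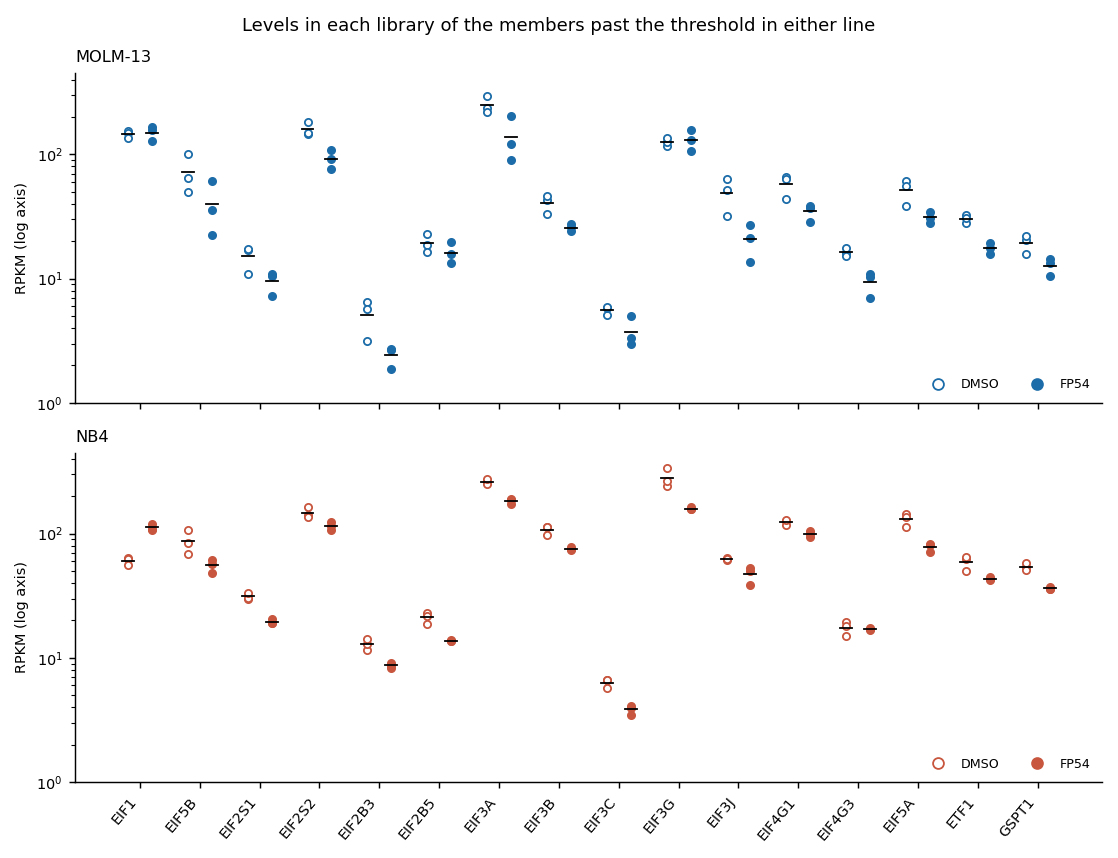
RPKM on a log axis in each library of the 16 members past the threshold in at least 1 line or direction, with DMSO as open and FP54 as filled points and the group mean as a bar. MOLM-13 is in the upper and NB4 in the lower panel, and EIF1 in NB4 is the one member whose FP54 values lie above its DMSO values at a called change.

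The scaffolds EIF4G1 and EIF4G3 fell in MOLM-13. EIF4G1, which bridges eIF4E, eIF4A and eIF3, measured 66.1, 43.3 and 63.9 RPKM with DMSO and 28.7, 38.4 and 37.2 with FP54 there (log2 fold change -0.72, SE 0.19, adjusted p = 0.0272). Its groups were apart, and the call was lost without DMSO replicate 1, DMSO replicate 3 or FP54 replicate 1. In NB4 EIF4G1 measured 126, 118 and 128 RPKM with DMSO and 106, 99.8 and 94.6 with FP54 (log2 fold change -0.31, SE 0.08, adjusted p = 0.00765), apart but under the fold threshold. EIF4G3, its close paralog, measured 16.1, 15.2 and 17.6 RPKM with DMSO and 7.04, 10.9 and 10.3 with FP54 in MOLM-13 (log2 fold change -0.81, SE 0.18, adjusted p = 0.0149), a fall to 57.7%. In NB4 it stood at 19.5, 15 and 18.1 RPKM with DMSO and 16.7, 17.1 and 17.3 with FP54 (log2 fold change -0.03, SE 0.10, adjusted p = 0.828), where the groups overlapped. The effects of FP54 on EIF4G3 differed between lines by 0.78 (SE 0.22, adjusted p = 0.0271), a call lost in 4 of 6 left-out library numbers and under median-ratio scaling. EIF4G2, a relative that cannot bind eIF4E, had values of 83.2, 77.7 and 67.5 to 78, 60.6 and 81.9 RPKM in MOLM-13 and 103, 76.5 and 112 to 85.6, 87.6 and 86.1 RPKM in NB4. Both sets overlapped, with log2 fold changes of -0.06 and -0.15 that were above 0 under quantile scaling.

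EIF4E, the cap-binding protein, measured 6.25, 4.10 and 6.38 RPKM with DMSO and 1.97, 3.42 and 4.28 with FP54 in MOLM-13 (log2 fold change -0.81, SE 0.28, adjusted p = 0.0652), with a single overlap at the second DMSO library. In NB4 the values were 17, 13.6 and 16.2 RPKM with DMSO and 11.8, 11.5 and 11.6 with FP54 (log2 fold change -0.42, SE 0.10, adjusted p = 0.0053). There the groups were apart, and the decrease did not reach the fold threshold. EIF4E2, which binds the cap without recruiting eIF4G, went from 14.4, 12.9 and 16.1 to 10.5, 14.3 and 10.9 RPKM in MOLM-13 (log2 fold change -0.29, SE 0.16, adjusted p = 0.233) and from 13.4, 15.1 and 13.9 to 10.7, 11.4 and 11.3 RPKM in NB4 (log2 fold change -0.34, SE 0.09, adjusted p = 0.00826). Neither was called. EIF4E3 was barely expressed, at 1.11, 0.800 and 0.928 to 0.776, 0.794 and 1.17 RPKM in MOLM-13 and 0.112, 0.0869 and 0.153 to 0.236, 0.167 and 0.177 RPKM in NB4, and was not tested.

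Of the eIF4E-binding repressors, EIF4EBP1 differed in its response between the lines, though it was called in neither. EIF4EBP1 measured 174, 142 and 176 RPKM with DMSO and 151, 108 and 127 with FP54 in MOLM-13 (log2 fold change -0.36, SE 0.16, adjusted p = 0.141) and 146, 214 and 157 RPKM with DMSO and 228, 227 and 212 with FP54 in NB4 (log2 fold change 0.39, SE 0.13, adjusted p = 0.0284). Groups overlapped in each line, and the difference of the effects was 0.74 (SE 0.22, adjusted p = 0.0368). It held in 1 of 6 left-out library numbers, and not under median-ratio scaling or with no filter on low values. EIF4EBP2 measured 19.1, 17.2 and 15.5 RPKM with DMSO and 24, 18.3 and 25 with FP54 in MOLM-13 (log2 fold change 0.37, SE 0.16, adjusted p = 0.128) and 45.9, 37.7 and 44.9 RPKM with DMSO and 45.9, 44.5 and 44.1 with FP54 in NB4 (log2 fold change 0.07, SE 0.09, adjusted p = 0.548), with overlap in both.

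No helicase or cofactor was called in either line, and at an unadjusted limma p below 0.05 with no minimum fold 1 of 4 was lower in MOLM-13, while 1 was lower and 1 higher in NB4. All genes had 17.4% lower in MOLM-13 and 24.7% lower and 33.3% higher in NB4 at that limit. Of the helicase pair, EIF4A2 was the more abundant by the deposited values. It measured 137, 143 and 139 RPKM with DMSO and 97.3, 118 and 119 with FP54 in MOLM-13 (log2 fold change -0.33, SE 0.13, adjusted p = 0.111), with groups apart. In NB4 EIF4A2 measured 68.2, 57.2 and 66.3 RPKM with DMSO and 71.2, 68.4 and 70.6 with FP54 (log2 fold change 0.14, SE 0.09, adjusted p = 0.213). EIF4A1, whose level is uncertain as stated above, measured 5.90, 3.01 and 6.02 RPKM with DMSO and 3.55, 4.36 and 5.60 with FP54 in MOLM-13 and 4.40, 4.55 and 4.05 RPKM with DMSO and 6.37, 4.73 and 5.21 with FP54 in NB4 (log2 fold changes -0.10 and 0.31). The difference of the effects on EIF4A2 was 0.46 (SE 0.16, adjusted p = 0.0614). The cofactors EIF4B and EIF4H ranged from -0.21 to -0.01 in MOLM-13 and from -0.19 to -0.12 in NB4.

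Of the 5 elongation factors tested, 1 was called, against 9.04% of all genes called lower in MOLM-13 and 10.7% in NB4. A single call among 5 is not a result about the group. EIF5A, which carries hypusine and relieves stalling at proline-rich stretches, fell in both lines. It measured 61, 38.2 and 56.1 RPKM with DMSO and 27.9, 30.9 and 34.7 with FP54 in MOLM-13 (log2 fold change -0.71, SE 0.18, adjusted p = 0.0267) and 114, 144 and 136 RPKM with DMSO and 82.8, 81.3 and 70.7 with FP54 in NB4 (log2 fold change -0.74, SE 0.11, adjusted p = 0.000237). Groups were apart in each, at 60.2% and 59.6% of the DMSO mean, and the difference between the lines was -0.03 (SE 0.23, adjusted p = 0.939). The MOLM-13 call was lost without DMSO replicate 1, DMSO replicate 3 or FP54 replicate 1, and the NB4 call held for each library.

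EEF1A1, which brings aminoacyl-tRNA to the ribosome, measured 515, 541 and 642 RPKM with DMSO and 874, 709 and 735 with FP54 in NB4 (log2 fold change 0.45, SE 0.11, adjusted p = 0.00714) and 837, 949 and 755 RPKM with DMSO and 1204, 862 and 1159.6 with FP54 in MOLM-13 (log2 fold change 0.34, SE 0.17, adjusted p = 0.194). EEF2, the translocation factor, measured 577, 649 and 607 RPKM with DMSO and 841, 817 and 842 with FP54 in NB4 (log2 fold change 0.45, SE 0.08, adjusted p = 0.00124). All FP54 libraries of NB4 were above the DMSO libraries for both genes, at a fold under the threshold. In MOLM-13 EEF2 was at 1460.1, 1599.7 and 1430.1 to 1661, 1429 and 1408 RPKM (log2 fold change 0.00, SE 0.15, adjusted p = 1), with overlap. The exchange subunits EEF1B2 and EEF1D had log2 fold changes of -0.29 and 0.05 in MOLM-13 and 0.14 and 0.01 in NB4, where both were below 0 under median-ratio scaling. In NB4 8 of 44 members were higher at an adjusted p below 0.05, against 29.8% of all genes, a share not limited to genes of like level. The 8 were EIF1, EIF1B, EIF2S3, EIF3E, EIF3H, EIF4EBP1, EEF1A1 and EEF2, but under median-ratio scaling 1 member was higher.

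Both release factors fell in MOLM-13 and GSPT1 fell in NB4, where 9.04% and 10.7% of all genes were called lower. The group holds 2 genes only. ETF1 (eRF1), which reads the stop codon, measured 32.7, 28 and 30.6 RPKM with DMSO and 15.8, 17.5 and 19.4 with FP54 in MOLM-13 (log2 fold change -0.79, SE 0.14, adjusted p = 0.0062) and 62.2, 50.2 and 65.1 RPKM with DMSO and 42, 44.5 and 43.5 with FP54 in NB4 (log2 fold change -0.44, SE 0.10, adjusted p = 0.00482). The values were apart in both lines, with only the MOLM-13 change past the fold threshold. GSPT1 (eRF3a), the GTPase partner of ETF1, measured 20.4, 15.8 and 22.2 RPKM with DMSO and 10.5, 14.4 and 13.2 with FP54 in MOLM-13 (log2 fold change -0.61, SE 0.18, adjusted p = 0.0385) and 53.8, 50.8 and 57.8 RPKM with DMSO and 37.5, 35.9 and 35.8 with FP54 in NB4 (log2 fold change -0.57, SE 0.08, adjusted p = 0.000237). No FP54 value reached the DMSO range in either line. The MOLM-13 call was lost without any of 4 libraries (DMSO replicates 1 and 3, FP54 replicates 1 and 3), while the NB4 call held for all 6 and was lost under quantile scaling.

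Members that begin with the pyrimidine run described above held 0 calls in either line on the deposited values. Under quantile scaling EIF2S3 was called higher in NB4, and so was EEF1A1 without DMSO replicate 3 or FP54 replicate 2. EIF2S3, EEF1A1 and EEF2 had an adjusted limma p below 0.05 in NB4 in the upward direction. In MOLM-13 the 10 ranged from -0.34 to 0.34 on the log2 scale (median -0.22), while 8 of the 26 tested members with another start were lower and they ranged from -1.24 to 0.37 (median -0.40). In NB4 the 10 ranged from -0.14 to 0.45 (median 0.14, or -0.06 under median-ratio scaling), and 8 of the 26 others were lower and 1 higher (median -0.39). The count of the others called lower in NB4 was 16 under median-ratio and 5 under quantile scaling. Over all tested genes with a start in the table, 7.03% of 640 with the run and 9.10% of 7306 without it were lower in MOLM-13. In NB4 the shares were 6.61% of 651 and 11.1% of 7434. For 10 members, 0 called lower is near the shares of genes with the run, so it is not a result about these members. The ranges above are also over unequal numbers of members, 10 and 26. The medians over those genes were 0.01 and 0.0004 in MOLM-13, and 0.11 and 0.06 in NB4. The members with the run were also mostly abundant mRNAs, and the part of level in this split was not tested.

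**Figure D4:**
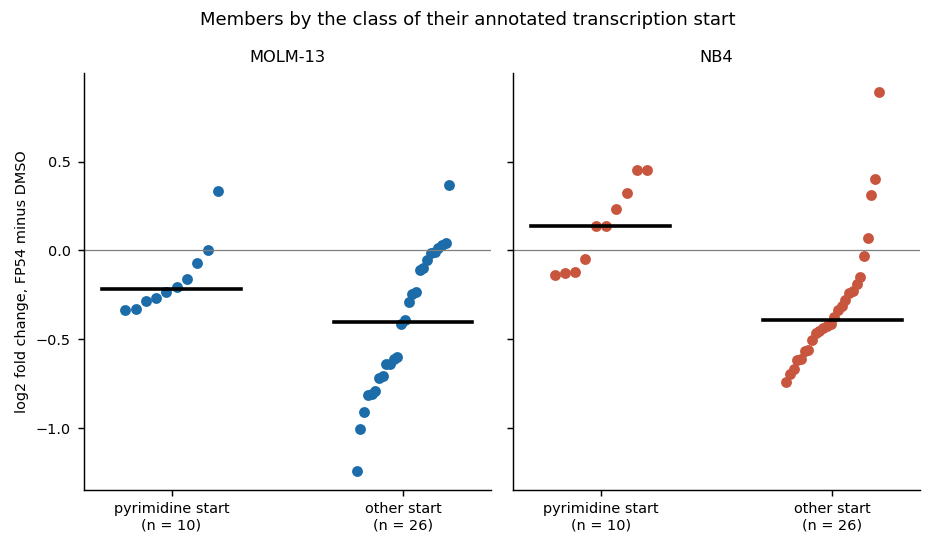
Log2 fold change (FP54 minus DMSO) of the 36 tested members with a start in the RefSeq table, by whether the start carries a pyrimidine run, in MOLM-13 (left) and NB4 (right), with the median as a bar. The 10 members with the run stay within 0.5 of 0 in both lines on the deposited values, and under quantile scaling EIF2S3 in NB4 does not.

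In the 300-base windows around the start (250 before and 50 after), the E-box CACGTG, the letters bound by MYC and MAX, was found in 8 of 38 members and 8.77% of all genes in the table. The 8 were EIF1B, EIF2B3, EIF3F, EIF3K, EIF4E, EIF4G1, EIF4B and EIF4H, of which EIF2B3 and EIF4G1 were called lower in MOLM-13 and EIF2B3 in NB4. The motif TGATGNAA, searched on both strands and bound by ATF4 and its partners, was found for 1 member, EIF4E3, and 4.46% of genes. Windows of different transcripts of a gene were pooled, and E-box matches read alike on both strands.

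Of 50 other translation genes, chosen by role with earlier results of these data known, 45 were tested in MOLM-13 and 47 in NB4. In MOLM-13 4 fell and 3 rose (median -0.15), against 9.04% and 9.30% of all genes, and in NB4 6 fell and 2 rose (median -0.06), against 10.7% and 18.6%. The shares that fell are near those of all genes, so the genes named next are examples and not a pattern of the list. TUFM, the mitochondrial elongation factor that delivers tRNA, was the one called lower in both lines, going from 133, 104 and 149 to 59.9, 73.8 and 68.1 RPKM in MOLM-13 (log2 fold change -0.92, SE 0.16, adjusted p = 0.0062) and from 191, 263 and 206 to 154, 153 and 144 RPKM in NB4 (log2 fold change -0.54, SE 0.11, adjusted p = 0.00265). The groups were apart in each. ABCE1, which splits the ribosome after release, went from 20.6, 11.3 and 18.2 to 5.04, 7.27 and 10.4 RPKM in MOLM-13 (log2 fold change -1.15, SE 0.28, adjusted p = 0.0207). Its second DMSO library was the lowest of the controls.

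Among the elongation genes of that list, EEF1A2, the tissue-restricted paralog of EEF1A1, went from 13, 16.6 and 15.8 to 10.1, 10.5 and 7.84 RPKM in MOLM-13 (log2 fold change -0.67, SE 0.17, adjusted p = 0.0215) and was not tested in NB4, where it averaged under 0.2 RPKM. DOHH, the hydroxylase that completes hypusine on EIF5A, went from 5.33, 3.99 and 6.12 to 3.22, 3.07 and 3.14 RPKM in MOLM-13 (log2 fold change -0.67, SE 0.18, adjusted p = 0.031). Both had groups apart. Of the diphthamide enzymes, which modify EEF2, DPH2 fell in NB4 (log2 fold change -0.94, SE 0.10, adjusted p = 2.99e-05) and DPH5 rose there (log2 fold change 0.51, SE 0.09, adjusted p = 0.00113). EEFSEC, the selenocysteine elongation factor, rose in MOLM-13 (log2 fold change 0.73, SE 0.21, adjusted p = 0.0368), from a level near 1 RPKM.

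The other initiation genes and regulators called were PAIP2B and MKNK1, which rose in MOLM-13, and MKNK2, which rose in NB4. PAIP2B, an inhibitor of the poly(A)-binding protein, went from 1.20, 1.21 and 1.28 to 2.64, 2.45 and 2.23 RPKM in MOLM-13 (log2 fold change 0.93, SE 0.18, adjusted p = 0.00908). MKNK1 and MKNK2, the kinases that phosphorylate eIF4E, had log2 fold changes of 0.65 in MOLM-13 and 0.66 in NB4. DHX29, a helicase for structured leaders, ABCF1, an ATP-binding initiation regulator, and EIF3CL fell in NB4, at -0.58, -0.64 and -0.83. GFM1, a mitochondrial elongation factor, also fell there (log2 fold change -0.61, SE 0.13, adjusted p = 0.00276). The effect differed between lines for PABPC1, PAIP2B, EEFSEC and DPH5. PABPC1, the poly(A)-binding protein, went from 253, 235 and 248 to 351, 333 and 338 RPKM in NB4 and from 583, 627 and 567 to 485, 556 and 566 RPKM in MOLM-13, a difference of 0.62 (SE 0.15, adjusted p = 0.0137).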

How the data were processed

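Polyadenylated RNA of MOLM-13 and NB4 cells was sequenced in 12 libraries, 3 per treatment and line. The other 10 of the 22 samples in the labels (m6A and polysome libraries) were not analysed here. According to the study's methods and the submitters' processing notes, the library kit keeps the strand of the RNA, and the authors trimmed reads with cutadapt 4.8, removed duplicates with Clumpify, aligned to hg38 with STAR 2.7.11b and counted reads on protein-coding genes with featureCounts 2.0.3. The authors deposited the result as RPKM per gene. The gene lengths, library totals and strand setting behind them are not given in the sources used here. The line of each table rests on the table's name, and its columns give treatment and replicate. Removing duplicates by sequence can lower the counts of the most abundant genes.

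Reads were recovered from RPKM and exon lengths of GENCODE release 44. Of values up to 50 reads, 98.5% to 99.2% per library lay within 0.05 of a whole number. Depth was 5836560 to 19207421 reads in MOLM-13 and 10602309 to 22349822 in NB4.

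In R 4.3.3, log2(RPKM + 0.1) was fitted with limma 3.58.1 (eBayes with trend) for each line, over genes with a mean of at least 1 RPKM, and as an interaction over both lines. Adjusted p-values are Benjamini-Hochberg values from limma over all genes tested. With 3 libraries against 3, an exact two-sided permutation test cannot go below 0.1. Fits were tested on simulated data with a log2 change of 1.5 in known genes. Of those, 97.5% were recovered in MOLM-13 (9684 genes tested), 100% in NB4 (9762 tested) and 94.6% in the interaction (8792 tested). Recovery was not tested at smaller changes, such as those of the called members. Alternatives were the pseudocount, the filter, the scaling, the trend, the replicate block, other cutoffs, limma-voom on the recovered reads and leaving out each library. Subtraction of the olfactory receptor level was added after seeing the data. Values per library are given for members called in either line, for members whose effect differed between lines and for paralogs named in the design, and other translation genes by list and call. EEF1A1 and EEF2 values per library, and those of TUFM and PABPC1, were given after their values were seen. The members and lists were chosen with earlier results of these data known. Starts were read from RefSeq windows (GRCh38), and all 38 shown or searched matched the hg38 genome. Tables were read in Python 3.11.15 with pandas 2.3.3 and drawn with matplotlib 3.10.9. Sequences of proteins were not used here, and some markers are not reported here.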

Additional observations from a re-analysis of the deposited data

Results flagged for a closer look

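The effect of FP54, as a log2 fold change on RPKM + 0.1, differed between the lines for 4 members in the interaction test (NB4 minus MOLM-13, limma, 3 libraries per group). EIF1 differed by 0.86 (SE 0.17, adjusted p = 0.00289), with all 3 NB4 libraries treated with FP54 above all DMSO libraries and overlapping groups in MOLM-13. EIF3G differed by -0.83 (SE 0.21, adjusted p = 0.0151), called lower in NB4 and not in MOLM-13. EIF4G3 differed by 0.78 (SE 0.22, adjusted p = 0.0271), called lower in MOLM-13 and not in NB4. EIF4EBP1 differed by 0.74 (SE 0.22, adjusted p = 0.0368), with overlapping groups in both lines.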

How the results depend on the processing

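Of 891 values of single genes under alternatives, 816 kept their side of the threshold, 52 lost the call and 23 gained it. The 816 include values that were not called at first and stayed so. Only values called at first could lose the call, so 52 of 891 understates how often calls were lost. The direction turned in 0 calls and in 21 values that were not called. At p below 0.05 with a log2 change of 1 or more, members called lower were 2 in MOLM-13 and 0 in NB4, and members called higher 0 in NB4. The share of all genes at that cutoff is not given here. At an adjusted p below 0.05 with no minimum fold, NB4 had 22 lower and 8 higher. With no filter on low values, 4 members were lower in MOLM-13. In NB4, median-ratio scaling gave 19 lower and a member median of -0.41, and quantile normalization gave 6 lower, 3 higher and a median of -0.094, with 8 members differing between lines. The cause of these shifts was not tested. Leaving out 1 library gave 4 to 14 lower and 0 to 1 higher in MOLM-13 (the 1, EIF4EBP2, without FP54 replicate 2), 7 to 11 lower and 1 to 2 higher in NB4 (EIF3E without DMSO replicate 1, EIF4EBP1 without DMSO replicate 2 and EEF1A1 without DMSO replicate 3 or FP54 replicate 2, each beside EIF1). Of all genes, leaving out 1 library gave 4.86% to 12.6% lower and 5.68% to 11.6% higher in MOLM-13. In NB4 it gave 10.1% to 11.3% lower and 17.3% to 21.4% higher. Leaving out a library number in both lines at once gave 1 to 5 members differing between lines. For differences between lines, the share of all genes is given for the main fit alone (14.2%). The replicate numbers do not pair the libraries: deviations of same-numbered libraries correlated at -0.26, -0.13 and -0.06 in MOLM-13 and -0.14, 0.07 and 0.12 in NB4. In MOLM-13 DMSO 1 with FP54 3 correlated at 0.59, DMSO 2 with FP54 1 at 0.49 and DMSO 3 with FP54 2 at 0.47. Other differently numbered libraries of MOLM-13 correlated negatively. The deviations of a treatment sum to 0 for each gene, so a positive correlation forces negative ones elsewhere. Those negative values therefore say nothing on pairing, and a pairing other than by number was not tested. With the replicate number as a block, 11 members were lower and 0 higher in MOLM-13, 10 lower and 1 higher in NB4, and 4 differed between lines. All genes then had 9.06% lower and 8.41% higher in MOLM-13, and 10.7% lower and 18.9% higher in NB4. Subtracting the olfactory receptor level, chosen after seeing the data, gave 10 lower and 0 higher in MOLM-13, 10 lower and 1 higher in NB4, and 4 differing between lines. The shares of all genes were 9.05% and 9.27% in MOLM-13, and 11.2% and 17.8% in NB4. Limma-voom on recovered reads gave 13 lower in MOLM-13, 10 lower and 1 higher in NB4, and 6 differing between lines. It called 9.79% of all genes lower in MOLM-13, and 10.7% lower and 19.1% higher in NB4. With 54 to 99 reads in the shallowest MOLM-13 library, EIF2B3, EIF2B2 and EIF4E are the tested members with the fewest reads there.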
